A study of Homo sapiens with 6 samples.

Results

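The SWI/SNF complex, also called the BAF complex, was examined through 10 of its subunit genes out of 20263 genes in the count table. They were SMARCA2, SMARCA4, SMARCB1, SMARCC1, SMARCC2, SMARCD1, SMARCD2, SMARCD3, SMARCE1 and ARID1A, found by their Ensembl identifiers, and all 10 had enough counts to be tested. SMARCD1 had been picked for its difference between knockdown and control libraries in these same data, so its values are a description with no test. The other 9 were taken as its paralogs and partners in the complex. The libraries came from U118, an established human glioma line that the labels call astroblastoma, sampled at day 2 after siRNA transfection. Wild-type U118 and U118 given a control siRNA contributed 1 library each, WT and siNC, and 4 libraries, siRIPK2_1 to siRIPK2_4, came from RIPK2 knockdown. All were grown in the same serum-containing medium. RIPK2 is a kinase that passes signals from the NOD receptors to NF-kB. The labels do not state whether the 4 knockdown libraries are separate siRNAs or separate cultures, or whether WT was mock-transfected. Test results thus rest on the spread among single libraries, and that spread may be technical.

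SWI/SNF complexes slide and evict nucleosomes with energy from ATP, and so open promoters and enhancers to transcription factors. Each complex holds 1 ATPase, SMARCA4 (BRG1) or SMARCA2 (BRM). In the canonical and PBAF forms it sits on a core built from SMARCC1 or SMARCC2 with SMARCB1, SMARCE1 and 1 of the SMARCD paralogs. ARID1A or ARID1B marks the canonical form, ARID2 with PBRM1 the PBAF form, and BRD9 with BICRA or BICRAL the non-canonical form. Several of these genes, among them SMARCA4, SMARCB1 and ARID1A, are tumour suppressors that are recurrently mutated in cancers.

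Promoter sequences are shown for the members on which the results turn. SMARCD1 (ENSG00000066117) lies at chr12:50084972-50100712 on the plus strand, SMARCA4 (ENSG00000127616) at chr19:10960825-11079426 on the plus strand and SMARCA2 (ENSG00000080503) at chr9:1980290-2193624 on the plus strand (GRCh38, GENCODE 29). RefSeq entries of GRCh38.p14 were found for 8 of the 10 members, not for SMARCC1 and SMARCC2. The 250 bases upstream of 1 annotated start per gene are shown for SMARCD1 and SMARCA4, the members that stood above both controls in every knockdown library, and for SMARCA2, the alternative ATPase, which did not. All 3 are on the plus strand, at chr12:50085092-50085341, chr19:10960780-10961029 and chr9:2015097-2015346, and are the first entry of each gene. The RefSeq starts used lie downstream of the GENCODE gene starts given above. The SMARCD1 and SMARCA2 windows and part of the SMARCA4 window thus lie inside the GENCODE genes. Capitals mark matches, on either strand, to 6 motifs.
SMARCD1: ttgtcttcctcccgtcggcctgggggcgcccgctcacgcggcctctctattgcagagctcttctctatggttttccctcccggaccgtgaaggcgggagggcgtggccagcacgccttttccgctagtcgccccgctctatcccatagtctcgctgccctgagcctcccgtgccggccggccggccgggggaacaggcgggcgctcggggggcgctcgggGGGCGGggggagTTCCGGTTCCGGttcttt
SMARCA4: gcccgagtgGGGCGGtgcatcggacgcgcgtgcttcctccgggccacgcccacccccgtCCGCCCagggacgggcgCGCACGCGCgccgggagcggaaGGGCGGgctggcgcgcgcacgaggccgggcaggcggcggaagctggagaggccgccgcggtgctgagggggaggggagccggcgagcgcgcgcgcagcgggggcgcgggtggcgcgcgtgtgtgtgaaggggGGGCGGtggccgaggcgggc
SMARCA2: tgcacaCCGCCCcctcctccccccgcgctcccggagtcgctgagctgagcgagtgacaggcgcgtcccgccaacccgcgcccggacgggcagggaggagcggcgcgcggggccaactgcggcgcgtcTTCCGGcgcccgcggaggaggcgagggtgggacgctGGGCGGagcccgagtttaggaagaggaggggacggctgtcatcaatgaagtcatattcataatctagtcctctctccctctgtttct
The motifs searched were the CCAAT box (CCAAT, in 32.0% of all 35116 promoter windows of this length), the GC box (GGGCGG, 42.6%) and the ETS core (CCGGAA, 14.5%). AP-1 (TGANTCA, 6.57%), a loose NF-kB site (GGNNTTTCC, 5.48%) and NRF1 (GCGCNTGCG, 6.54%) were searched as well. The SMARCD1 window held 1 GC box, 30 bases before the start, and 2 adjoining ETS cores at 18 and 12 bases. SMARCA4 held 4 GC boxes and 1 NRF1 match, and SMARCA2 held 2 GC boxes and 1 ETS core. None of the 3 windows had a match to CCAAT, AP-1 or the NF-kB letters. GC content was 70.4%, 82.4% and 68.8% in the windows shown for SMARCD1, SMARCA4 and SMARCA2. The other SMARCA4 entry had 55.6%, and the other 3 SMARCA2 entries had between 40% and 46% and no match to any of the motifs. These matches are a description of the letters, and no binding was measured.

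Total counts ranged from 33540619 to 45309423 per library, so that a level of 3 counts corresponded to between 0.0664 and 0.0935 CPM (library-size-scaled counts with TMM factors). The members had between 135 counts (SMARCD3) and 16566 counts (SMARCA4) in a library, so counting error was small beside the spread between libraries. RIPK2, the siRNA target, stood at 56.8 CPM in WT, 43.4 in siNC and 6.58 ± 3.67 (SD, n = 4) in the knockdown, or 8.89% to 27.3% of siNC. Of 12 astrocyte and glioma markers, 6 averaged at least 1 CPM, led by VIM (6122 CPM) and CD44 (424 CPM), whereas GFAP averaged 0.803 CPM, S100B 0.0081 CPM and AQP4 was listed at 0 in every library. Summed, that list ranged from 4351 CPM in siRIPK2_2 to 8207 in siNC. The macrophage list had 2 of 6 genes at that level, CD68 and CSF1R, with PTPRC at 0.0345 CPM and AIF1 and TYROBP at 0. Its sum was 94.97 CPM in siNC, 166.6 in WT and 107.8 to 149 in the knockdown. Endothelial markers (2 of 4 at that level) summed to between 1.46 and 6.67 CPM, epithelial markers (1 of 4) to between 3.93 and 7.36, and neuronal markers (2 of 5, mainly TUBB3) to between 79.6 and 121 CPM.

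The comparisons asked whether the subunit genes differed between cells with and without RIPK2 knockdown. SMARCA4 and SMARCD1 were the members with all 4 knockdown libraries above both controls, at means of 1.60 to 2.70 times a control. SMARCD1 had been chosen on this contrast. SMARCD3 was the 1 member with all 4 below both, at a low level. Over all genes tested, 4.95% had all 4 knockdown libraries above both controls and 5.45% all 4 below. The other 7 members overlapped the controls. No gene in the table, RIPK2 included (adjusted p = 0.739 against both controls), passed an adjusted p of 0.05 (Benjamini-Hochberg, over all genes tested) in edgeR's quasi-likelihood test, so that no member is called changed. DESeq2 did call RIPK2, with adjusted p of 0.00714 against siNC, 0.0034 against WT and 1.85e-06 against both controls, and limma-voom did not (0.292 against both controls). Each contrast was fitted over all genes: 14306 with the 3 groups, in which a lone control is assumed to vary like the knockdown libraries, and 13901 with both controls pooled. The pooled fit treats WT and siNC, 1 library each of different conditions, as replicates of 1 group. In bulk RNA, fewer cells with a transcript and less transcript per cell cannot be told apart.

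**Figure D1:**
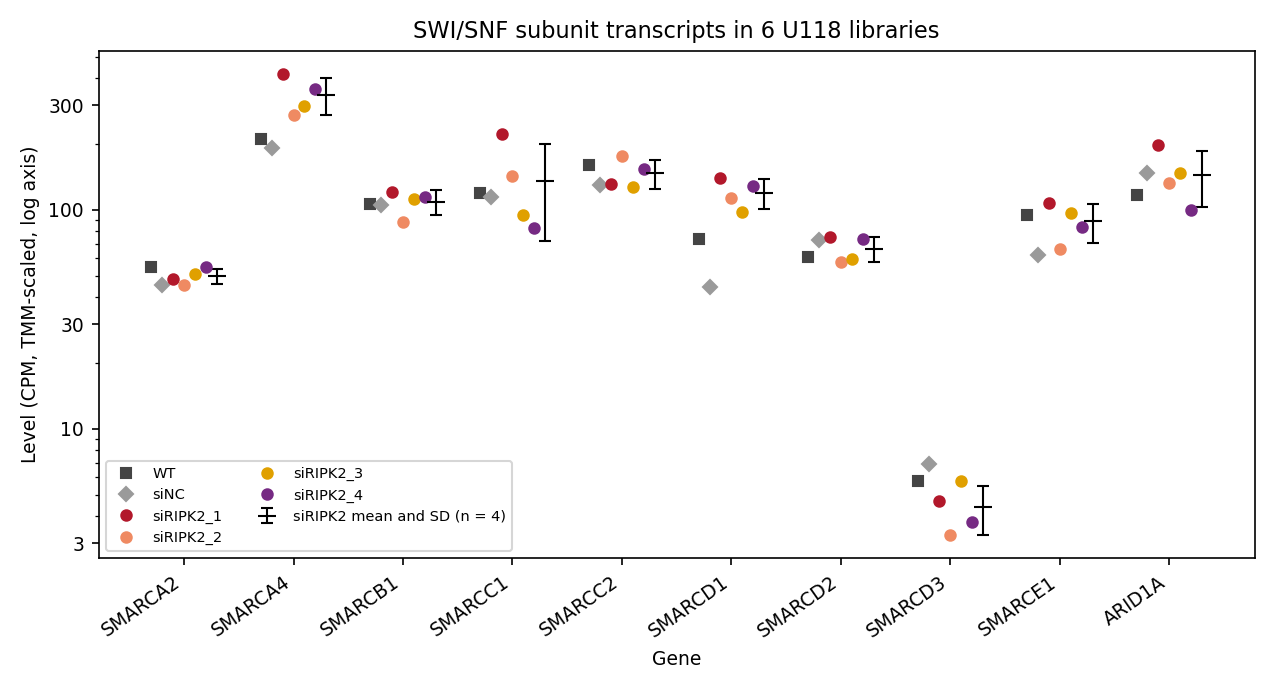
Levels of the 10 SWI/SNF members in the 6 libraries, in CPM on a log axis, with 1 point per library, each library in its own colour. Squares are WT, diamonds siNC and circles siRIPK2, and bars show the siRIPK2 mean and SD (n = 4). The 4 siRIPK2 points of SMARCA4 and SMARCD1 lie above both control points, those of SMARCD3 lie below both, and those of the other 7 members overlap the controls.

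SMARCA4 and SMARCA2 are the alternative ATPases of the complex. SMARCA4 measured 209.5 CPM in WT, 191 in siNC, and 418, 269.8, 298 and 355 across siRIPK2_1 to siRIPK2_4. All 4 knockdown libraries were above both controls, the lowest of them by 1.29-fold over WT, and siRIPK2_1 was the highest. Their mean of 335 ± 65.5 CPM (SD, n = 4) was 1.75 times siNC and 1.60 times WT. Against both controls the log2 fold change was 0.74 (SE 0.236, 95% interval 0.21 to 1.28), with an adjusted p of 1.0 in edgeR. DESeq2 gave an adjusted p of 0.959 and limma-voom 1.0 for the same contrast. With siNC alone as control it was 0.81 (SE 0.342, interval 0.02 to 1.61, adjusted p = 1.0 in edgeR), and with WT alone 0.68 (SE 0.339, interval -0.11 to 1.47, adjusted p = 1.0 in edgeR).

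SMARCA2 stayed within a narrow band, at 54.9 CPM in WT, 45.5 in siNC, and 48.1, 45.4, 50.9 and 54.7 in the knockdown libraries. The knockdown values spanned almost the same range as the controls. Its coefficient of variation over the 4 knockdown libraries was 8.01%, and 6.11% of the 10674 genes at 5 CPM or more had a lower one. Against both controls its log2 fold change was -0.01 with an interval of -0.48 to 0.46, which leaves changes of that size undetected in either direction.

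Per kilobase of transcript, SMARCA4 made up 79.5% of the ATPase transcripts in WT and 81.0% in siNC. The share was 89.8%, 85.8%, 85.6% and 86.8% across siRIPK2_1 to siRIPK2_4. These ratios do not depend on library scaling. All 4 knockdown libraries had a larger SMARCA4 share than either control. With SMARCA2 nearly level, this share and the log2 ratio of the pair restate the SMARCA4 difference and are no separate result. The log2 ratio of SMARCA2 to SMARCA4 was -2.75 ± 0.263 (SD, n = 4) in the knockdown and averaged -2.02 in the controls, a difference of -0.73. The two-sided exact permutation test gave p = 0.0667, the smallest that 4 libraries against 2 allow, and 0.1 after adjustment over the 3 ratios tested.

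Among the SMARCC scaffold paralogs, SMARCC1 was the most variable member. It measured 119.5 CPM in WT, 114 in siNC, and 222, 143, 94.6 and 82.9 across siRIPK2_1 to siRIPK2_4. siRIPK2_1 and siRIPK2_2 lay above both controls and siRIPK2_3 and siRIPK2_4 below both. The coefficient of variation of 46.8% within the knockdown exceeded that of 92.6% of the genes at 5 CPM or more, whose median was 21.8%. With so wide a spread, the log2 fold change against both controls, 0.22, had an interval of -0.65 to 1.08 and fell to -0.14 without siRIPK2_1.

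SMARCC2, the other scaffold paralog, measured 161 CPM in WT, 130.2 in siNC, and 132, 175, 127 and 153 in the knockdown, which overlapped both controls. Per length, SMARCC1 made up 32.2% of the pair in WT, 35.9% in siNC and 51.9%, 34.2%, 32.3% and 25.7% in the knockdown, so that siRIPK2_1 was the 1 library with more SMARCC1 than SMARCC2. With the length of all annotated exons in place of the main transcript, SMARCC1 came to 65.4% in siRIPK2_1 and to between 37.7% and 49.4% in the other 5 libraries, so siRIPK2_1 stood apart on either length. The log2 ratio of SMARCC2 to SMARCC1 differed by -0.098 between knockdown and controls (two-sided exact permutation p = 0.867, and 0.867 after adjustment over 3 ratios), against an SD of 0.695 among the 4 knockdown libraries.

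SMARCB1 and SMARCE1, the other core subunits, did not separate the groups. SMARCB1 measured 106 CPM in WT and 105 in siNC, and 120.3, 88.3, 112 and 115 across siRIPK2_1 to siRIPK2_4. Only siRIPK2_2 lay below the controls, and the other 3 lay above them. Its log2 fold change against both controls was 0.04, with an interval of -0.43 to 0.51. SMARCE1, which carries an HMG DNA-binding domain, measured 94.2 CPM in WT, 62.1 in siNC, and 107, 66.1, 97.0 and 83.9 in the knockdown. All 4 knockdown libraries were above siNC and 2 of them were above WT. Against siNC the log2 fold change was 0.51 (SE 0.352, interval -0.30 to 1.33, adjusted p = 1.0 in edgeR), and against WT it was -0.09.

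Within the SMARCD slot, which links the core to transcription factors and in which 1 paralog is used per complex, the knockdown libraries held more SMARCD1 and a similar level of SMARCD2. SMARCD1 measured 73.9 CPM in WT, 44.3 in siNC, and 139.7, 113, 97.4 and 129 across siRIPK2_1 to siRIPK2_4. The lowest knockdown library stood 1.32-fold above WT, and the 2 controls themselves differed, siNC being 0.600 times WT. The knockdown mean of 119.8 ± 18.5 CPM (SD, n = 4) was 2.70 times siNC and 1.62 times WT. As log2 fold changes these were 1.43 (SE 0.344) and 0.70 (SE 0.326), and 1.02 (SE 0.276) against both controls. The size thus rests on which control is used.

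SMARCD2 measured 60.9 CPM in WT, 72.9 in siNC, and 74.9, 58.0, 59.7 and 73.3 in the knockdown. siRIPK2_1 and siRIPK2_4 lay above both controls, and siRIPK2_2 and siRIPK2_3 below both. The log2 fold change against both controls was -0.01, with an interval of -0.50 to 0.48. SMARCD3, the paralog best known from heart and muscle, was the lowest member, at 5.80 CPM in WT, 6.89 in siNC, and 4.69, 3.28, 5.78 and 3.74 in the knockdown. All 4 knockdown libraries were below both controls, but siRIPK2_3 only just so. Against both controls its log2 fold change was -0.54 (SE 0.325, interval -1.27 to 0.20, adjusted p = 1.0 in edgeR). Some exons of SMARCD3 overlap CHPF2, those of SMARCC2 overlap MYL6, those of SMARCB1 overlap DERL3 and those of SMARCE1 overlap ENSG00000264058. How the counting treated strand is unknown, so reads of these pairs may be mixed.

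SMARCD1 made up 44.4% of the SMARCD transcripts per length in WT, 28.6% in siNC and 56.1%, 57.4%, 51.7% and 55.0% in the knockdown libraries. SMARCD2 held 49.3% and 63.4% in WT and siNC and between 39.6% and 42.7% in the knockdown. SMARCD1 was thus the leading paralog in all 4 knockdown libraries and SMARCD2 in both controls. With SMARCD2 at a similar level, this restates the difference for which SMARCD1 was chosen and is a description only. The knockdown share of SMARCD1, 55.0% ± 2.41 (SD, n = 4), varied little between libraries, although SMARCD1 itself ranged over 1.43-fold among them.

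Levels per length were also summed over the paralogs of a slot. The SMARCD genes together came to 45.5 CPM per kb in WT, 42.4 in siNC, and 68.1, 53.8, 51.5 and 64.1 in the knockdown. The 2 ATPases together came to 45.5 CPM per kb in WT, 40.8 in siNC, and 80.4, 54.3, 60.2 and 70.7 in the knockdown. Both sums stood above both controls in all 4 knockdown libraries, but they hold SMARCD1, which was chosen for its difference, and SMARCA4, which makes up most of the ATPase sum, and so restate those genes. The SMARCC pair, at 58.2 and 49.8 CPM per kb in WT and siNC and 45.9 to 67.2 in the knockdown, overlapped the controls. So did ARID1A, ARID1B and ARID2 together, at 22.3 and 28.8 CPM per kb in the controls and 17.7 to 34.3 in the knockdown.

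**Figure D2:**
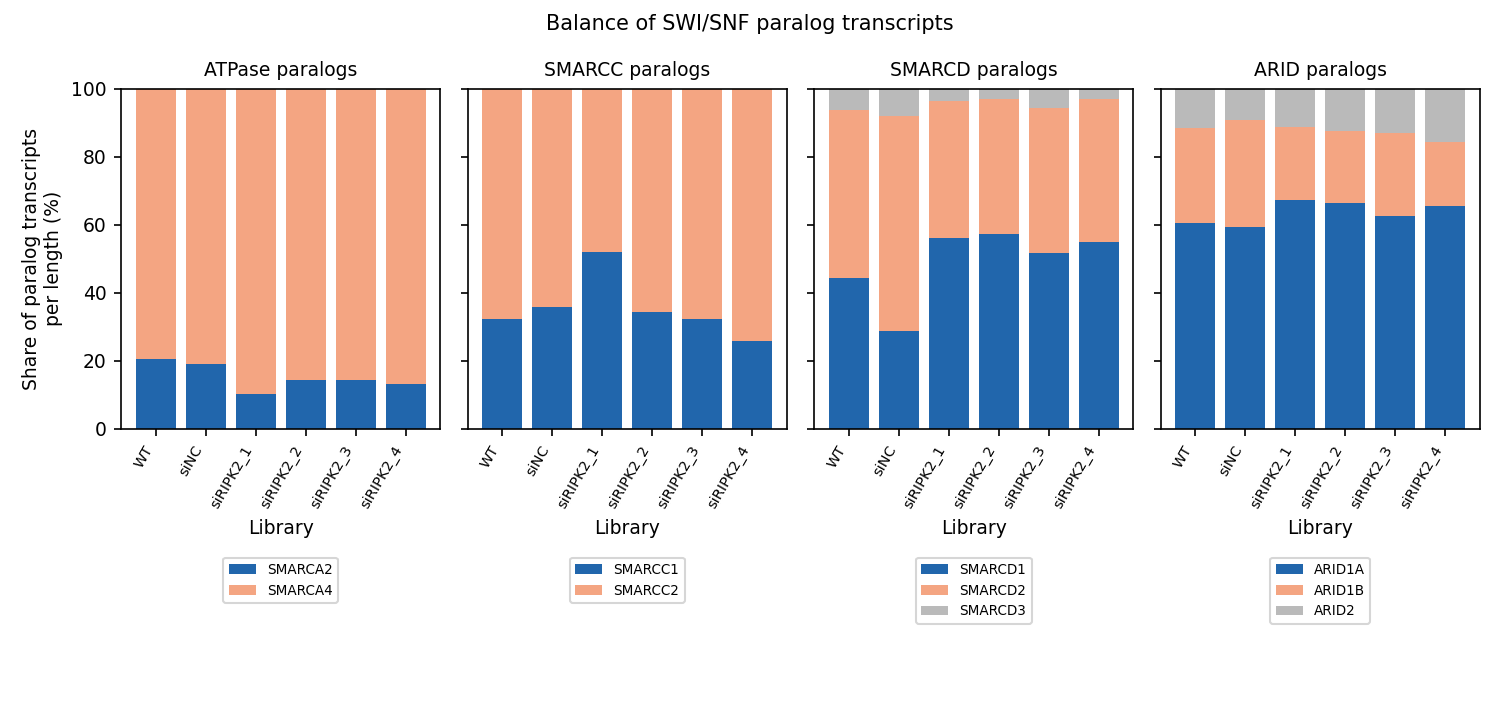
Share of each paralog among the transcripts of its slot, in percent per kilobase of transcript, stacked for each of the 6 libraries, with 1 panel each for ATPase, SMARCC, SMARCD and ARID paralogs. SMARCD1 holds 51.7% to 57.4% in the knockdown libraries against 28.6% and 44.4% in the controls, and SMARCA4 holds 85.6% to 89.8% against 79.5% and 81.0%. These shares restate the levels of SMARCD1, which was chosen for its difference, and of SMARCA4.

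ARID1A, the DNA-binding subunit of the canonical complex, measured 116 CPM in WT, 147 in siNC, and 198, 132, 147 and 99.6 across siRIPK2_1 to siRIPK2_4. siRIPK2_1 was the highest of the 6 libraries and siRIPK2_4 the lowest. The log2 fold change against both controls was 0.13, with an interval of -0.51 to 0.78. ARID1B, its mutually exclusive paralog, measured 49.5 CPM in WT, 72.5 in siNC, and 59.0, 39.2, 53.5 and 26.6 in the knockdown, with a log2 fold change of -0.45 (interval -1.21 to 0.30, adjusted p = 1.0 in edgeR). Neither gene separated the groups, ARID1A ranging 1.99-fold and ARID1B 2.22-fold among the knockdown libraries. Their ratio lay below both controls in all 4, with siRIPK2_3 closest to WT. How often other gene pairs separate in this way was not tested. ARID1B to ARID1A per length had a log2 ratio of -1.12 in WT, -0.91 in siNC and -1.64, -1.65, -1.35 and -1.80 in the knockdown. That is a difference of -0.59 with a two-sided exact permutation p of 0.0667, the smallest possible, and 0.1 after adjustment over 3 ratios.

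Read together, 7 of the 10 members had a positive and 3 a negative log2 fold change against both controls, with a median of 0.087 beside 0.014 over all genes tested. Against siNC the split was 7 to 3 (median 0.15, all genes 0.016), and against WT it was 6 to 4 (median 0.08, all genes 0.013). Between the controls, siNC was lower than WT for 7 of the 10 (median -0.10, all genes -0.0017). These contrasts share libraries and are not independent of each other. Over all genes tested, 52.1% had a positive log2 fold change against both controls, 51.7% against siNC and 51.9% against WT. With SMARCD1 left out, the other 9 split 6 to 3 against both controls, with a median of 0.04.

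As background, 0.0% of genes were called by adjusted p in each contrast. By unadjusted p under 0.05, 3.56% of genes were higher and 1.21% lower in the knockdown than in siNC, 0.664% higher and 0.419% lower than in WT, and 1.32% higher and 1.23% lower than in both controls. Of the 9 members other than SMARCD1, 1 (SMARCA4) was past that level, on the higher side, against siNC and against both controls, and 0 were past it against WT. Over all genes tested, 4.95% had all 4 knockdown libraries above both controls and 5.45% had all 4 below. Among the members these counts were 2 of 10, 1 of them SMARCD1, which had been chosen on this contrast, and 1 of 10.

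**Figure D3:**
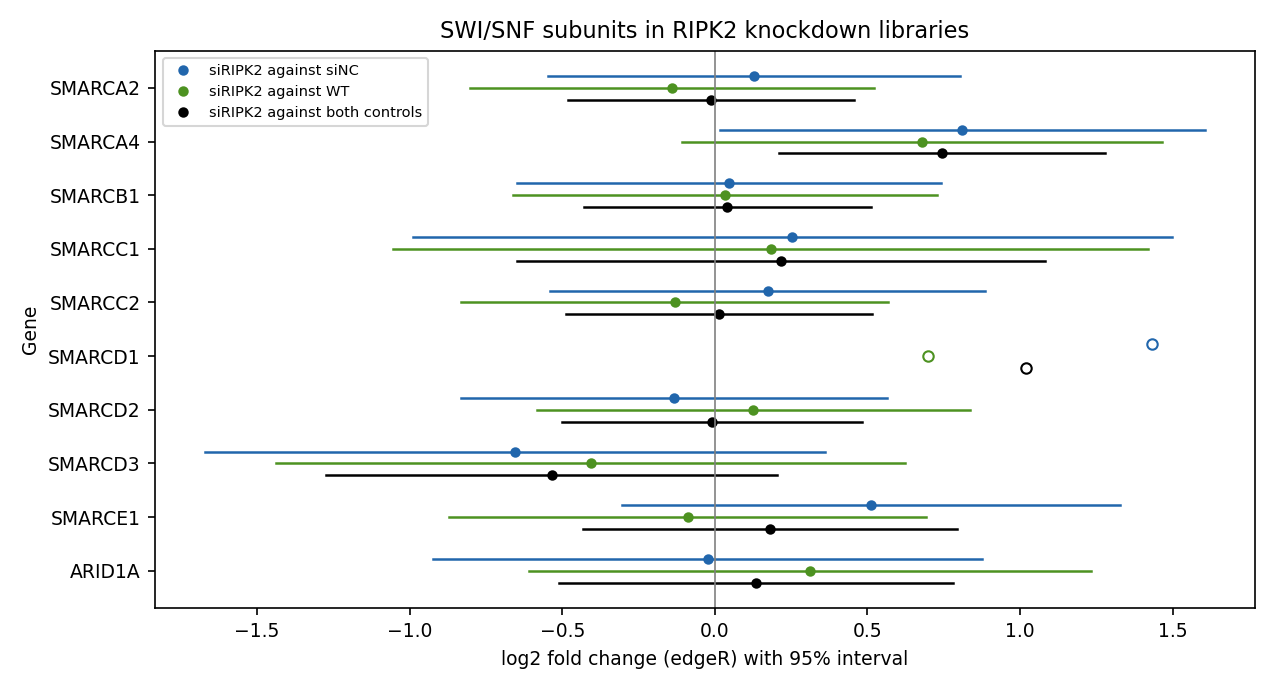
Log2 fold changes of the 10 members with 95% intervals from the edgeR fits, siRIPK2 against siNC, against WT and against both controls, with SMARCD1 as open points without intervals, since it is a description. The SMARCA4 interval against both controls, 0.21 to 1.28, does not reach 0, whereas those of SMARCA2, SMARCB1, SMARCC1, SMARCC2, SMARCD2, SMARCD3, SMARCE1 and ARID1A in the same contrast do. That contrast pools WT and siNC as 1 group. Against WT alone the SMARCA4 interval, -0.11 to 1.47, does reach 0, and against siNC alone, 0.02 to 1.61, it does not.

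The knockdown libraries also differed among themselves. siRIPK2_1 had the highest level of the 6 libraries for 7 of the 10 members (SMARCA4, SMARCB1, SMARCC1, SMARCD1, SMARCD2, SMARCE1 and ARID1A) and the lowest for 0, whereas over all genes it was highest for 21.0% and lowest for 21.3%. It was also highest for 8 of 18 other subunits tested. RIPK2 itself was lowest in siRIPK2_1, at 3.86 CPM. siRIPK2_2, with the highest RIPK2 level of the 4 at 11.9 CPM, was the lowest library for 4 members (SMARCA2, SMARCB1, SMARCD2 and SMARCD3), against 17.4% of all genes. It was the highest for 1, SMARCC2, against 17.6%. siRIPK2_4, with RIPK2 at 4.32 CPM, close to siRIPK2_1, was highest for 0 members and lowest for 2 (SMARCC1 and ARID1A), against 16.4% and 17.0%. siRIPK2_3, with RIPK2 at 6.27 CPM, was highest for 0 and lowest for 1 (SMARCC2), against 20.5% and 18.1%. siNC was the lowest library for SMARCA4, SMARCD1 and SMARCE1, against 17.8% of all genes. The part of the RIPK2 level in these ranks was not tested.

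Ordered by level per kilobase over the 6 libraries, SMARCA4 came first at 50.1 CPM per kb, then SMARCC2 (35.9), SMARCD1 (27.2), SMARCD2 (24.5), SMARCB1 (20.7), SMARCC1 (20.3), ARID1A (16.3), SMARCE1 (13.7), SMARCA2 (8.51) and SMARCD3 (2.49). SMARCD1 and SMARCD2 change places between controls and knockdown, which restates the difference for which SMARCD1 was chosen. SMARCB1 and SMARCC1 do not differ beyond their spread. With the length of all annotated exons, SMARCD1 came first and SMARCA4 next, and SMARCA2 and SMARCD3 stayed the last. Both orders average 4 knockdown libraries with 2 controls, so the places of SMARCD1 and SMARCA4 rest in part on their knockdown levels. Per kb of main transcript, SMARCD1 stood at 12.1 CPM in siNC, below SMARCB1 (20.2), SMARCC1 (17.9) and ARID1A (17.1). In WT, SMARCD1 (20.2) was just below SMARCB1 (20.4), and SMARCC2 (39.5) exceeded SMARCA4 (36.2).

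Of 20 further SWI/SNF subunits, 18 were tested against both controls, and 14 had a positive and 4 a negative log2 fold change. Over all genes, 52.1% were positive. The median was 0.23 beside 0.014 over all genes. None of the 18 subunits passed by adjusted p in edgeR. ARID2, BRD7 and SS18L1 had all 4 knockdown libraries above both controls (3 of 18, against 4.95% of all genes), and none had all 4 below. ARID2 and BRD7, both subunits of the PBAF form, had log2 fold changes of 0.33 (interval -0.21 to 0.86) and 0.33 (interval -0.13 to 0.79), each with an adjusted p of 1.0 in edgeR. ARID2 measured 22.3 CPM in WT, 22.4 in siNC, and 32.8, 24.9, 30.5 and 23.8 in the knockdown. BRD7 measured 57.1 CPM in WT, 48.2 in siNC, and 69.5, 59.1, 69.8 and 66.6 in the knockdown. In both genes the lowest knockdown library exceeded the higher control by little, and BRD7 exons overlap those of ADCY7. Of the further subunits, PBRM1 also overlaps UQCC5, PHF10 overlaps C6orf120, BRD9 overlaps TRIP13 and ZDHHC11, and ACTL6A overlaps MRPL47. Reads of these genes may be mixed too. PBRM1, the defining PBAF subunit, overlapped the controls at 84.8 CPM in WT, 86.8 in siNC and 91.9 ± 10.1 (SD, n = 4) in the knockdown. PHF10 overlapped them too, at 19.1 CPM in WT, 19.5 in siNC, and 22.55, 13.4, 22.4 and 17.1 across siRIPK2_1 to siRIPK2_4. Its log2 fold change against both controls was -0.035, with an interval of -0.67 to 0.60.

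SS18L1, a paralog of SS18 used in neuronal complexes, was the steadiest of these genes, at 33.9 CPM in WT, 31.9 in siNC and 40.1 ± 1.51 (SD, n = 4) in the knockdown. Of the BCL7 subunits, BCL7A measured 3.55 CPM in WT, 1.99 in siNC, and 7.54, 3.01, 5.89 and 5.80 across siRIPK2_1 to siRIPK2_4. BCL7B measured 40.9, 25.4, and 54.2, 36.9, 41.0 and 48.8 CPM in the same order. Both were lowest in siNC. Against siNC their log2 fold changes were 1.48 (interval 0.08 to 2.88) and 0.83 (interval 0.02 to 1.64), each with an adjusted p of 1.0 in edgeR. In both, WT lay inside the knockdown range. BCL7C ranged from 53.8 to 67.0 CPM over the 6 libraries. The non-canonical subunits BRD9, BICRA and BICRAL overlapped the controls, BICRA being lowest in siNC at 8.91 CPM against 14.1 in WT and 14.0 to 18.1 in the knockdown. DPF2, a PHD finger subunit that reads histone acetylation, measured 101 CPM in WT, 119 in siNC and 129.8 ± 9.73 (SD, n = 4) in the knockdown. Its paralog DPF3 measured 9.88 CPM in WT, 12.2 in siNC, and 23.0, 14.8, 18.9 and 11.1 in the knockdown. In both genes 1 knockdown library lay below siNC. DPF1 overlapped the controls, at 6.44 CPM in WT, 6.98 in siNC, and 8.98, 5.56, 8.19 and 8.61 across siRIPK2_1 to siRIPK2_4. SS18, the partner in the synovial sarcoma fusion, spanned 141 to 199.7 CPM, with its extremes in siRIPK2_3 and siRIPK2_1. ACTL6A, the actin-like subunit of dividing cells, measured 127 to 162 CPM over the 6 libraries. Its neuronal counterpart ACTL6B had 0 counts in 5 libraries and 1 count in siRIPK2_4. BCL11A and BCL11B were at most 0.364 and 0.332 CPM.

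**Figure D4:**
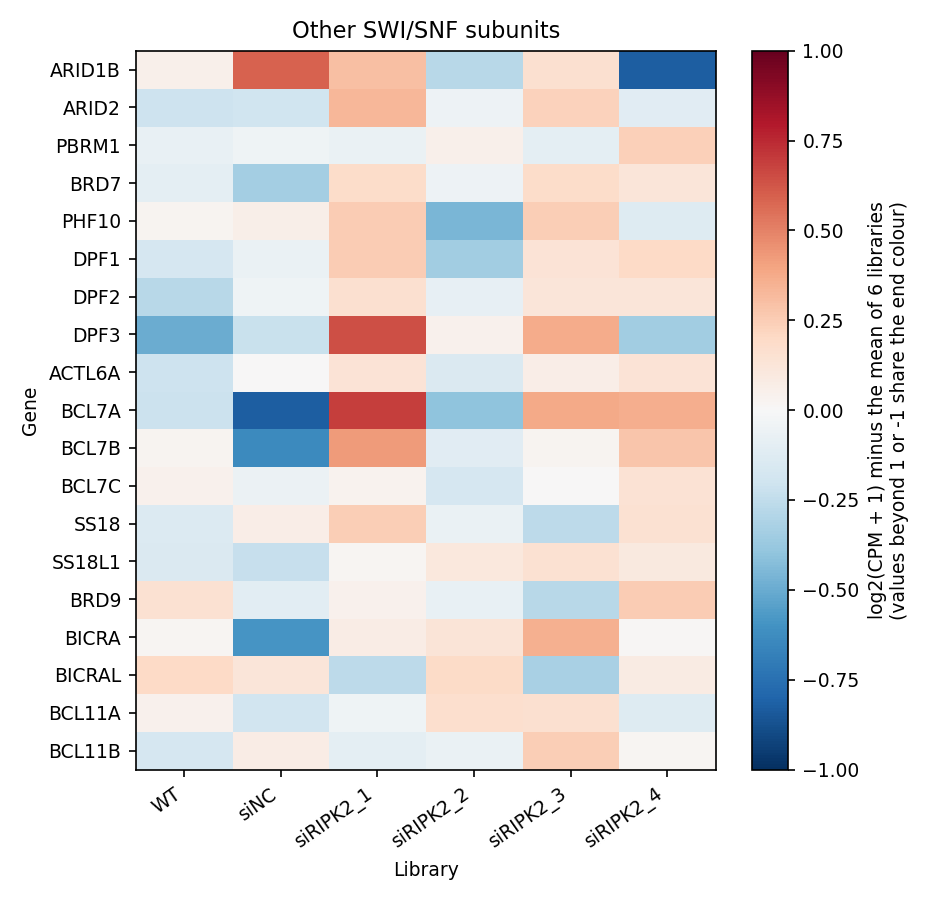
Heat map of log2(CPM + 1) relative to the mean of the 6 libraries for the 19 other SWI/SNF subunits tested with 3 groups, with libraries as columns and genes as rows. BCL7A and BCL7B are lowest in siNC, SS18L1 lies above both controls in each siRIPK2 library, and ARID1B is highest in siNC and lowest in siRIPK2_4.

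Chromatin regulators outside the complex gave the following counts. Of 35 genes of other remodelling complexes (ISWI, CHD/NuRD, INO80 and relatives), 34 were tested, and 25 were higher and 9 lower than in siNC (median 0.20). For all genes tested, 51.7% were higher than in siNC, with a median of 0.016. By unadjusted p, 5 passed on the higher side (BPTF, RSF1, CHD9, ATRX and SMARCAD1) and 1, CHD2, on the lower, and 0 passed by adjusted p in edgeR. Over all genes these shares were 3.56% and 1.21%. Against WT 0 of the 34 were past that level, and against both controls 2 were, BAZ1A and BPTF, both higher, beside 1.32% of all genes. ATRX, which deposits histone H3.3 at repeats, measured 43.9 CPM in WT, 10.9 in siNC and 36.7 ± 7.67 (SD, n = 4) in the knockdown. RSF1 measured 38.7 CPM in WT, 16.2 in siNC and 39.3 ± 6.84 (SD, n = 4) in the knockdown. In both genes siNC alone stood low and WT lay near the knockdown mean. CHD2 stood high in siNC alone, at 124 CPM against 61.3 in WT and 68.2 ± 2.82 (SD, n = 4) in the knockdown. BPTF, the largest NURF subunit, did stand above both controls in all 4 knockdown libraries, at 58.8 CPM in WT, 33.2 in siNC and 74.8 ± 12.1 (SD, n = 4), as did CHD9, INO80 and SRCAP, while CHD3 stood below both. That is 4 and 1 of 34, against 4.95% and 5.45% of all genes.

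Polycomb group genes, which oppose SWI/SNF at many promoters, were split 18 to 7 against siNC (25 tested, median 0.15) and 18 to 7 against WT (median 0.05), with 0 past an unadjusted p of 0.05. Over all genes, 51.7% were higher than in siNC (median 0.016) and 51.9% higher than in WT (median 0.013). PCGF2 was the 1 gene of 25 with all 4 knockdown libraries above both controls, near the 4.95% of all genes. PCGF5, BMI1 and SUZ12 were lowest in siNC, at 20.1, 22.3 and 37.0 CPM, against 38.0, 45.6 and 54.3 CPM in WT. Of the genes known to need the SWI/SNF ATPases in cell lines, CD44, CSF1 and CDKN1A were tested and CDH1 was too low. CDKN1A, a cell cycle inhibitor, measured 58.4 CPM in WT, 114 in siNC and 68.5 ± 10.4 (SD, n = 4) in the knockdown. CD44 measured 475 CPM in WT, 556 in siNC, and 389, 410.0, 224 and 489 across siRIPK2_1 to siRIPK2_4. CSF1 measured 417 CPM in WT, 761 in siNC and 527 ± 173 (SD, n = 4) in the knockdown. All 3 were lower than in siNC on average, 2 of them were higher than in WT, and none passed by adjusted p in edgeR. CDKN1A was past an unadjusted 0.05 on the lower side against siNC (log2 fold change -0.74), 1 of 3 beside 1.21% of all genes, but not against WT (0.23). It was past it between the controls too, siNC being higher than WT by a log2 fold change of 0.97.

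The genes whose profile over the 6 libraries was most like that of SMARCD1 were SYT14, MAZ, GLIS2, ZNF680 and BPTF. Likeness was the root mean square distance between log2(CPM + 1) profiles, each centred on its mean, among 10673 genes at 5 CPM or more, with a median distance of 0.623. SYT14, a synaptotagmin-family gene, was nearest at 0.0799, with 8.35 CPM in WT, 4.58 in siNC, and 17.6, 11.5, 10.9 and 14.5 in the knockdown. MAZ, a zinc finger transcription factor of GC-rich promoters, was at 0.164, GLIS2 and ZNF680, both zinc finger genes, at 0.167, and BPTF at 0.169. All 5 were lowest in siNC, next lowest in WT and higher in every knockdown library, which is the order of SMARCD1 itself. Of the subunits, SMARCA4 was the nearest at 0.254, in place 40, and BCL7B was in place 87 at 0.293. The paralogs were distant, SMARCD2 in place 3840 and SMARCD3 in place 9400. SMARCD1 thus varied over the libraries more like SMARCA4 than like its own paralogs, by distance alone and with 6 libraries. SMARCD1 was chosen for its knockdown difference, so genes near its profile share that pattern. The place of SMARCA4 restates that it too stood above both controls.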

How the data were processed

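RNA from U118 cells was poly(A)-selected and sequenced in 6 libraries, per the labels' protocols. The authors deposited raw counts per Ensembl gene, unnormalised. FastQC, Trimmomatic, HISAT2, bedtools and GRCh38 are named in the submitters' processing notes; the sources used here state no version, annotation or strand setting, so reads of overlapping genes cannot be told apart. Symbols matched 20148 of 20263 identifiers, and GENCODE 29 supplied positions and lengths (the longest principal transcript) for 20224. All 6 columns matched 1 sample each by name. The test was the quasi-likelihood F test of edgeR 4.0.16 (R 4.3.3) after TMM scaling and filterByExpr (minimum count 10), with Benjamini-Hochberg adjustment over all genes tested, checked on simulated counts. The 3-group fit has 3 residual degrees of freedom and the fit with pooled controls 4. Ratios of paralogs used the exact permutation test over 15 arrangements of the 6 libraries. DESeq2 1.42.0, limma-voom 3.58.1, other scalings, no low-count filter, length and GC offsets and left-out libraries were tried. No pair of libraries agreed within sampling noise (chi-square of 77.1 to 223.6 per degree of freedom). A floor of 3 counts covers counting error only. The members and lists were chosen with earlier results of these data known. The text names all members, RIPK2, the other subunits, up to 4 genes of each other list at 1 CPM or more, ranked by unadjusted p against siNC, and the 5 profiles nearest SMARCD1; genes standing above or below both controls were named after their values were seen.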

Additional observations from a re-analysis of the deposited data

Results flagged for a closer look

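In the Polycomb list, MTF2, a subunit that guides PRC2 to CpG islands, measured 14.4 CPM in siRIPK2_2 against 28.6 to 30.5 CPM in the other 3 knockdown libraries. This gap was 0.886 of the range over the 4 libraries, above Dixon's 95% critical value for 4 samples. WT and siNC, at 19.6 and 15.9 CPM, lay between. It was the 1 case among 42 genes screened, and chance flags about 1 in 20.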

How the results depend on the processing

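The log2 fold changes of SMARCA4 and SMARCD1 kept their sign in every alternative: 0.61 to 0.83 for SMARCA4 and 0.70 to 1.43 for SMARCD1 against both controls, the latter from 0.70 without siNC to 1.43 without WT. In both genes all 4 knockdown libraries lay above both controls, so leaving out a library could hardly reverse the sign. For SMARCD1, chosen on this contrast, the stable sign is a description. Counts of genes past an adjusted p of 0.05, 0 in edgeR for all 4 contrasts (682, 155, 391 and 355 by unadjusted p against siNC, against WT, siNC against WT and against both), were 75, 9, 11 and 10 with DESeq2. The contrast with WT gave 1 with no low-count filter and 1 with limma-voom. With a replicate left out, the contrast with both controls gave 0 to 2, and 2 without siRIPK2_1 or without siRIPK2_2. Its 355 genes by unadjusted p became 152 without siNC, 676 without WT and 561 without siRIPK2_2. The ratio of SMARCC2 to SMARCC1 ranged from -0.32 to 0.22 with 1 knockdown library left out and changed sign without siRIPK2_1. The ATPase ratio stayed between -0.80 and -0.61 and the ARID1 ratio between -0.68 and -0.53. Against both controls, fold changes near 0 changed sign. With library size only, SMARCA2 gave 0.022 and SMARCD2 0.032. With length and GC offsets, SMARCB1 gave -0.0088 and SMARCD2 0.055. With 1 library left out, knockdown or control, the ranges were -0.14 to 0.12 for SMARCA2 (positive without siRIPK2_2 or WT), -0.021 to 0.13 for SMARCB1 (negative without siRIPK2_1) and -0.14 to 0.39 for SMARCC1 (negative without siRIPK2_1). They were -0.13 to 0.17 for SMARCC2 (negative without siRIPK2_2, siRIPK2_4 or siNC) and -0.14 to 0.13 for SMARCD2 (positive without siRIPK2_2, siRIPK2_3 or siNC). SMARCE1 ranged from -0.085 (without siNC) to 0.50 (without WT), and ARID1A from -0.069 (without siRIPK2_1, also negative without WT) to 0.31. The cause was not tested. Members above both controls in every knockdown library, a count added after the data were seen, numbered 2 or 3, with SMARCE1 joining without WT and SMARCB1 without siRIPK2_2. No paired analysis was possible because WT and siNC carry no replicate numbers that match the knockdown libraries. A single library per control limits every contrast.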
